A study of Mus with 6 samples.

Results

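The genes of serotonin, dopamine and noradrenaline signalling were examined in the hippocampus of mice loaded with forced swim stress (FSS). A list of 39 genes was set, which holds 14 serotonin receptors, 5 dopamine receptors, 8 adrenergic receptors, 5 monoamine transporters and 7 enzymes that make or break down monoamines. A member was taken where the annotation of the array gives a row of the table exactly 1 gene symbol and that symbol is on the list, and 33 of the 39 genes, out of 19938 genes in all, met this rule with 1 row each. The other 6, all adrenergic receptors (Adra1a, Adra1d, Adra2a, Adra2b, Adrb1 and Adrb3), had no such row and were not analysed here. The samples are the whole hippocampus of 3 control mice and 3 FSS mice of the strain C57BL/6JJmsSlc, which the labels give as 10 to 11 weeks old and the paper as male, with no transgene or drug in either group. FSS mice swam for 11 min daily on 5 days in water that they could not leave, and control mice did not swim. Each mouse gave 1 GeneChip Mouse Gene ST array, read in 1 colour. According to the methods, a tail suspension test came between the swimming and the collection of the tissue. All levels below are on the log2 scale and come from robust multi-array averaging (RMA) by the authors, a procedure that subtracts background, aligns the arrays and combines the probes of a gene.

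Serotonin, dopamine and noradrenaline are made by neurons whose cell bodies lie in the raphe nuclei, the ventral midbrain and the locus coeruleus. Their axons run to the hippocampus, where receptors on pyramidal cells, granule cells and interneurons read the transmitter, mostly through G proteins that raise or lower cyclic AMP or activate phospholipase C. Transporters take the transmitter back into the axon, vesicular transporters load it into vesicles, and monoamine oxidases break it down. Several antidepressants act on these transporters, oxidases or receptors. Since an axon holds little of the mRNA of its cell body, mRNA from the hippocampus comes mainly from the receiving side of these systems.

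FSS was compared with control for every row with 1 symbol by limma, which moderates the variance of each gene with that of all the others, and 21789 rows were tested. In FSS mice, 3 of the 33 genes were lower at an unadjusted p under 0.05, namely the serotonin receptors Htr2a and Htr2b and the noradrenaline-forming enzyme Dbh, and 0 were higher. The 3 genes are 9.09% of the members, whereas 2.66% of all rows were lower and 2.49% were higher at the same threshold. With each array centred on its median, these shares of all rows were 3.46% lower and 1.82% higher, and 4 members were lower, Htr3b being added. None of the 33 genes, and 0 of all rows, passed an adjusted p of 0.05 (Benjamini-Hochberg over all rows, the smallest adjusted p from limma among the members being 0.943). None of the members met the thresholds used in the paper, a log2 fold change over 0.5 in size with an unadjusted p under 0.05, which 0.0688% of all rows met. The 95% interval of the difference lay within 0.5 on either side of 0 for all 33 members, and within 0.25 for 20 of them. The median difference over the members was -0.0066 on the log2 scale, beside 0.0049 over all rows, with 15 members above 0 and 18 below. Of all rows, 47% had a difference below 0. Every FSS mouse lay below every control mouse for 3 members, which are the same 3 genes, and above it for 0, whereas this held for 4.25% and 6.02% of all rows. With 3 mice in each group, the smallest two-sided p that exact permutation can reach is 0.1, and each of these 3 genes had it.

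**Figure D1:**
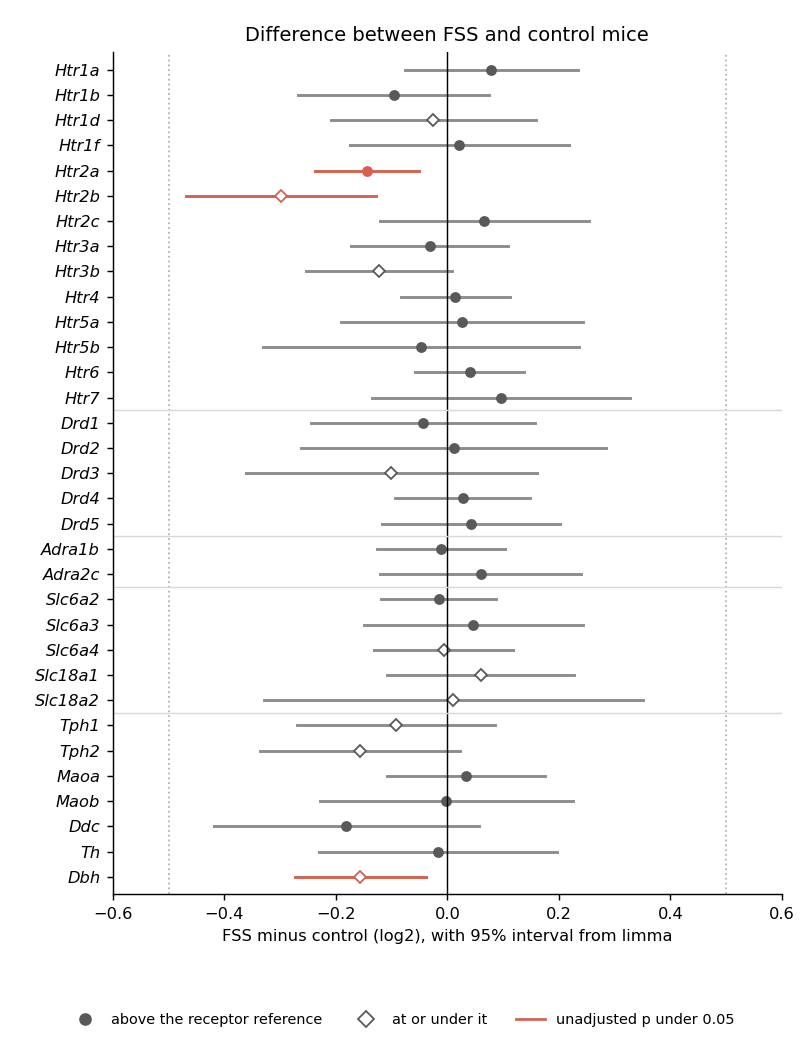
Difference between FSS and control mice (x axis, log2) for each of the 33 genes (y axis), in the order of serotonin, dopamine and adrenergic receptors, transporters and enzymes, with the 95% interval from limma as a bar. Red marks the 3 genes with an unadjusted p under 0.05 (Htr2a, Htr2b and Dbh), white diamonds mark genes at or under the level of the receptor reference, and all intervals end within the dotted lines at 0.5 and -0.5.

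Not all of these genes were clearly above the background of the array. Olfactory and vomeronasal receptor genes, which hippocampal tissue is expected to hold little of, filled 1210 rows, and the 95th percentile of their mean levels was 6.21. By this reference, 23 members lay above and 10 at or under it. Those at or under it were the serotonin receptors Htr1d, Htr2b and Htr3b, the dopamine receptor Drd3, the serotonin transporter Slc6a4, the vesicular transporters Slc18a1 and Slc18a2, both tryptophan hydroxylases (Tph1 and Tph2) and Dbh. Probes differ in how strongly they bind, so the levels do not rank the genes by abundance. The receptor reference rows were themselves lower in FSS mice, with a median difference of -0.045, and 7.02% of them were lower at an unadjusted p under 0.05 against 2.23% higher. Of all 5799 rows at or under the reference, 5.81% were lower. The members followed this division, with a median difference of -0.096 for the 10 dim genes (8 of them below 0) and 0.015 for the 23 brighter genes (10 below 0). A difference below 0 was found for 59.4% of all rows at or under the reference and 42.5% of those above it.

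**Figure D2:**
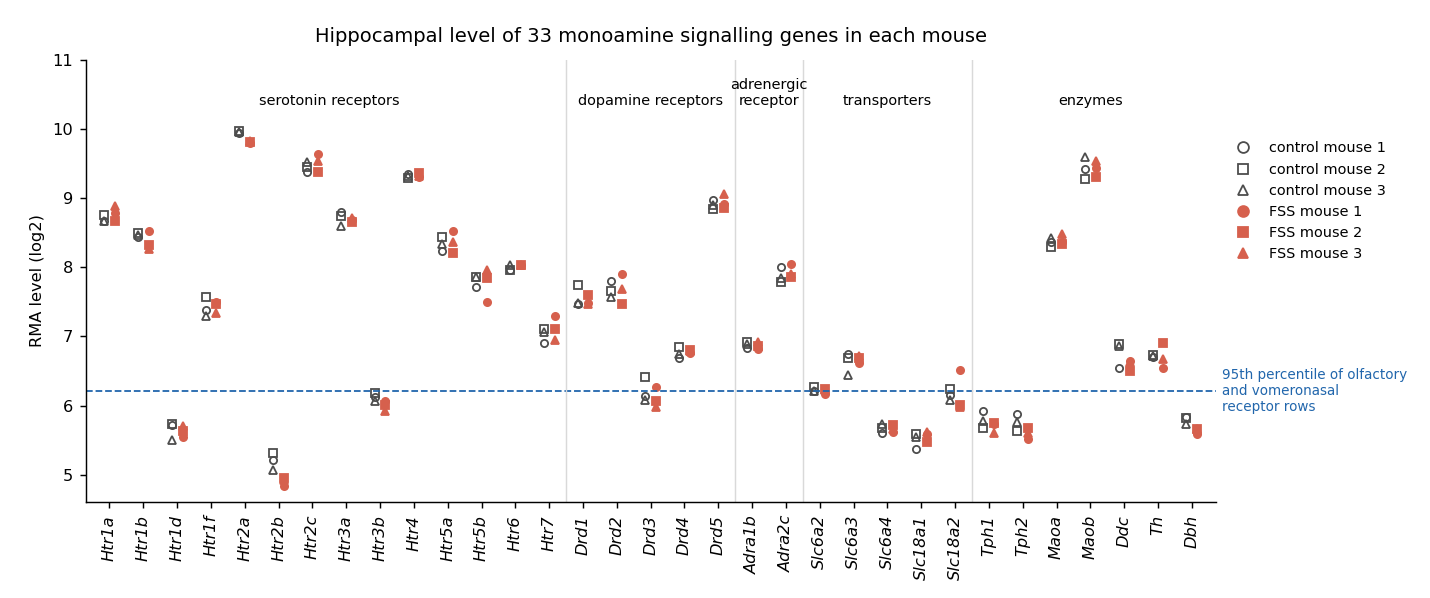
RMA level (y axis, log2) of each of the 33 genes (x axis) in each mouse, with open grey symbols for control mice and red symbols for FSS mice. The dashed line is the reference level of 6.21, and Htr2a shows 2 tight groups near the top while Htr2b is the lowest gene, at 4.83 to 5.31.

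**Figure D3:**
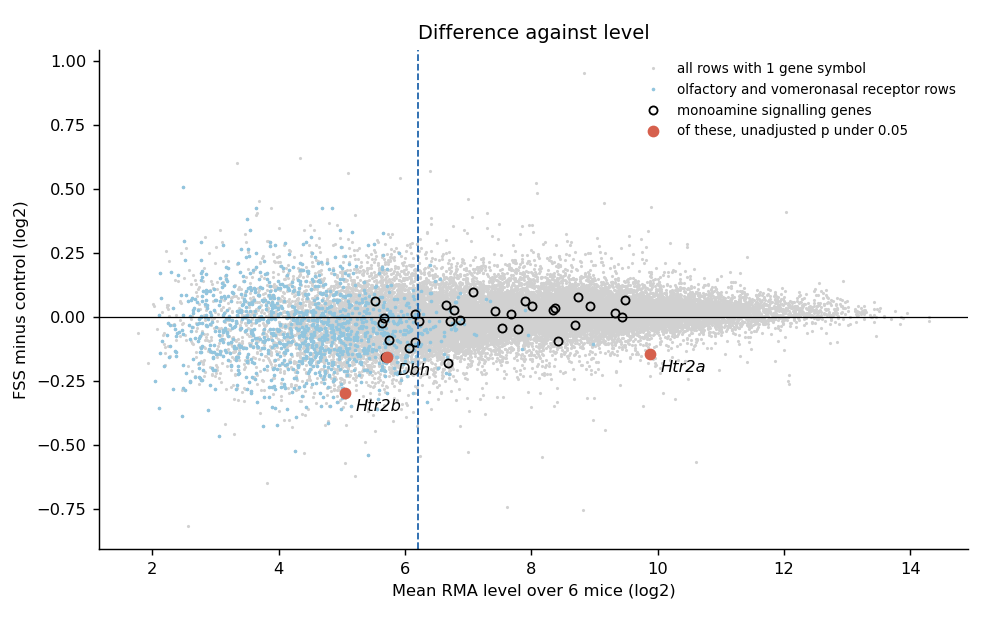
Difference between FSS and control mice (y axis, log2) against the mean level over 6 mice (x axis, log2) for all 21789 rows (grey), the olfactory and vomeronasal receptor rows (blue) and the 33 genes (circles, red where the unadjusted p was under 0.05). Htr2b and Dbh lie left of the dashed reference line among the blue points, and Htr2a lies at a level of 9.88.

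Among the 14 serotonin receptors, 2 were lower, 0 were higher and 12 did not pass. Htr2a encodes a receptor that activates phospholipase C through Gq proteins and is a target of hallucinogens and of several antipsychotics. Its level was 9.94, 9.97 and 9.95 in the control mice and 9.79, 9.81 and 9.82 in the FSS mice. The groups did not overlap, and the gap between them was several times the spread within each group. The mean was 9.96 ± 0.018 (SD, n = 3) in control mice and 9.81 ± 0.017 (SD, n = 3) in FSS mice. The difference was -0.14 (standard error 0.039, limma adjusted p = 0.943), a ratio of 0.905, with a 95% interval from -0.24 to -0.052 and an unadjusted p of 0.00811 from limma. Htr2a had the smallest spread within groups of all 33 members, and 1.52% of all rows had a smaller one. Its difference ranged from -0.15 to -0.13 without each mouse in turn and passed the unadjusted threshold each time. The 6 arrays differ in the SD of all their values, which was narrower (2.22 to 2.23) in FSS mouse 2 and the control mice 1 and 2 than in the remaining mice (2.26 to 2.27). The difference of Htr2a was -0.14 within the arrays of narrower spread and -0.14 within those of wider spread, that of Htr2b was -0.32 and -0.19, and that of Dbh was -0.16 and -0.10. Each of these values sets 1 array of a group against 2 of the other and carries no test. In bulk tissue, fewer cells that express a gene and less RNA per cell cannot be told apart.

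Htr2b encodes the Gq-coupled serotonin receptor best known from heart valves and the gut. In the control mice its level was 5.22, 5.31 and 5.07, and in the FSS mice it was 4.83, 4.95 and 4.92, so that the groups did not overlap. No other member differed by more than Htr2b, at -0.30 (standard error 0.071, limma adjusted p = 0.943), which corresponds to a ratio of 0.813. It ranged from -0.36 to -0.24 without each mouse in turn, and the unadjusted p stayed under 0.05. This gene lay under the receptor reference, with 69.8% of the receptor rows below it, and those rows were lower in FSS mice too. The part of that shift in this result was not tested. Htr2c, the Gq-coupled receptor that is abundant in the epithelium of the choroid plexus as well as in neurons, had a difference of 0.066 (95% interval -0.12 to 0.25), with 9.37, 9.45 and 9.52 in control mice and 9.64, 9.37 and 9.53 in FSS mice. The lowest Htr2c levels of the 6 were nearly equal, at 9.370 in FSS mouse 2 and 9.373 in control mouse 1. The 11 measured choroid plexus markers had a summed level of 10.73 to 10.99 in control mice and 11.07 to 11.23 in FSS mice, without overlap. Of them, 1 (Ttr) was higher and 0 were lower at an unadjusted p under 0.05, beside 2.49% and 2.66% of all rows. The median difference of the 11 was 0.036. Without Ttr the summed level of the other 10 was 10.56 to 10.61 in control mice and 10.60 to 10.80 in FSS mice, with overlap, and 5 of the 10 differences were below 0. Among the 11, Cldn2, Clic6, Otx2 and Slc4a5 lay at or under the reference. The part of these cells in the level of Htr2c was not tested.

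Htr1a and Htr1b encode receptors that act through inhibitory G proteins, on cell bodies and dendrites and on axon terminals respectively. For Htr1a the FSS mice had 8.78, 8.67 and 8.88 and the control mice 8.67, 8.76 and 8.66, with a difference of 0.079 (95% interval -0.076 to 0.23). For Htr1b the control mice lay close together at 8.43, 8.50 and 8.46, whereas FSS mouse 1 had the highest level of all 6 mice (8.52) and the other FSS mice had 8.33 and 8.26. The difference of Htr1b was -0.096 (95% interval -0.27 to 0.076), and it was -0.17 without FSS mouse 1, where it passed the unadjusted threshold (limma adjusted p = 1.00). The related receptors Htr1d and Htr1f had differences of -0.025 and 0.022.

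Htr3a and Htr3b encode subunits of the serotonin-gated cation channel, which in the hippocampus is found on interneurons. Htr3a had a difference of -0.032 (95% interval -0.17 to 0.11). The dim Htr3b had 6.13, 6.18 and 6.06 in control mice and 6.07, 6.01 and 5.93 in FSS mice, and FSS mouse 1 lay just above control mouse 3, so that the groups overlapped. Its difference of -0.12 had a 95% interval from -0.25 to 0.0089. Interneuron markers were all above the reference, and 0 of 10 passed in either direction (summed level 13.70 to 13.79 in control mice and 13.70 to 13.78 in FSS mice).

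Htr4, Htr6 and Htr7 encode the receptors that raise cyclic AMP through stimulatory G proteins. Htr4 varied little, between 9.29 and 9.36 over the 6 mice, with a difference of 0.015 (95% interval -0.084 to 0.11). Htr6 was 8.03 in each of the FSS mice and in control mouse 3, and 7.97 in the other control mice, and its difference was 0.040 (95% interval -0.057 to 0.14). Htr7 had the highest difference of the serotonin receptors, 0.096, with an interval from -0.13 to 0.33, since the FSS mice were spread from 6.95 to 7.30. Htr5a had a difference of 0.026. Htr5b, whose product works in rodents but not in humans and which is known from the medial habenula, ranged from 7.49 in FSS mouse 1 to 7.96 in FSS mouse 3 and had a difference of -0.047 (95% interval -0.33 to 0.24). Of the 7 markers of habenula and thalamus, 0 passed in either direction, and their summed level was 11.29 to 11.40 in control mice and 11.27 to 11.53 in FSS mice.

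No dopamine receptor passed the unadjusted threshold, and their differences ranged from -0.10 to 0.043. Drd5, which with Drd1 belongs to the receptors that raise cyclic AMP and is known from the hippocampus, had the highest mean level of these rows. It had 8.97, 8.84 and 8.89 in control mice and 8.91, 8.86 and 9.06 in FSS mice, so that the groups overlapped, and the difference was 0.043 (95% interval -0.12 to 0.20). For Drd1 the difference was -0.043 (95% interval -0.24 to 0.16), and control mouse 2 had the highest level (7.74) while control mouse 1, control mouse 3, FSS mouse 1 and FSS mouse 3 lay between 7.47 and 7.48. Drd2, Drd3 and Drd4 encode the receptors that lower cyclic AMP. Drd2 was spread over both groups, from 7.57 to 7.80 in control mice and from 7.47 to 7.90 in FSS mice, and its difference was 0.012 (95% interval -0.26 to 0.29). Drd3 had the largest difference of the dopamine receptors, -0.10 (standard error 0.11, limma adjusted p = 0.971), with 6.13, 6.41 and 6.08 in control mice and 6.27, 6.07 and 5.99 in FSS mice. It was 0.0031 without control mouse 2. The difference of Drd4 was 0.027. Of the 6 striatal markers analysed, 0 passed in either direction (summed level 11.40 to 11.46 in control mice and 11.36 to 11.46 in FSS mice).

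Of the adrenergic receptors, Adra1b, which is coupled to Gq, and Adra2c, which lowers cyclic AMP, were measured. Adra2c had 7.998, 7.78 and 7.84 in control mice and 8.04, 7.86 and 7.90 in FSS mice. Control mouse 1 lay among the FSS mice, and the difference was 0.060 (95% interval -0.12 to 0.24). Adra1b stayed between 6.82 and 6.93 in all 6 mice, with a difference of -0.011 (95% interval -0.13 to 0.10).

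None of the 5 transporters passed. The plasma membrane transporters of noradrenaline (Slc6a2), dopamine (Slc6a3) and serotonin (Slc6a4), the last of which is the target of selective serotonin reuptake inhibitors, had differences of -0.016, 0.047 and -0.0066. Slc6a3 had 6.75, 6.69 and 6.45 in control mice and 6.62, 6.68 and 6.72 in FSS mice, and all FSS mice lay within the range of the control mice. Without control mouse 3 its difference was -0.043. Slc18a1, the vesicular transporter known from neuroendocrine cells, had 5.38, 5.58 and 5.55 in control mice and 5.58, 5.48 and 5.62 in FSS mice, with a difference of 0.060 (95% interval -0.11 to 0.23). Slc18a2, the vesicular transporter of monoamine neurons, varied most within groups of all 33 genes. FSS mouse 1 had 6.52, whereas the other FSS mice had 6.01 and 5.98 and the control mice 6.15, 6.24 and 6.09. The difference was 0.011 (95% interval -0.33 to 0.35) with all mice and -0.16 without FSS mouse 1, where Slc18a2 passed the unadjusted threshold (limma adjusted p = 1.00).

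Among the 7 enzymes, 1 was lower, 0 were higher and 6 of the 7 differences were below 0. Of these 6, those of Maob (-0.0017) and Th (-0.017) were close to 0. A difference below 0 was found for 47% of all rows, for 59.4% of those at or under the reference and for 42.5% of those above it. Of the 7 enzymes, 4 lay above the reference. Dbh converts dopamine to noradrenaline and is a marker of noradrenergic neurons. Its level was 5.84, 5.81 and 5.73 in control mice and 5.59, 5.66 and 5.66 in FSS mice. The groups did not overlap, and control mouse 3 came nearest to the FSS mice. The difference was -0.16 (standard error 0.049, limma adjusted p = 0.943), a ratio of 0.897, and 86.9% of the receptor reference rows lay below this gene. The difference of Dbh was -0.13 without control mouse 1 (limma adjusted p = 0.906) and -0.13 without FSS mouse 1 (limma adjusted p = 1.00), and it did not pass the unadjusted threshold in either case. With the variance modelled on the level of the gene it did not pass either. As for Htr2b, the part of the lower receptor reference rows in this result was not tested. Tph2, which makes the step that limits serotonin synthesis in the brain, was dim as well, with 5.88, 5.63 and 5.76 in control mice and 5.52, 5.68 and 5.60 in FSS mice. Control mouse 2 lay among the FSS mice, and the difference of -0.16 had a 95% interval from -0.34 to 0.023. The difference of Tph1, the form of peripheral tissues and the pineal gland, was -0.091.

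Ddc, the decarboxylase that completes the synthesis of both serotonin and dopamine, had the largest difference of the enzymes, -0.18 (standard error 0.10, limma adjusted p = 0.943). The control mice had 6.55, 6.89 and 6.87, and the FSS mice 6.65, 6.49 and 6.62. Control mouse 1 lay among the FSS mice and the other control mice lay above them. Without control mouse 1 the difference was -0.29 and passed the unadjusted threshold (limma adjusted p = 0.764). Th, which makes the limiting step of catecholamine synthesis, was nearly alike in the control mice (6.70, 6.73 and 6.72), was spread from 6.54 to 6.90 in the FSS mice and had a difference of -0.017 (95% interval -0.23 to 0.20). Maoa and Maob, the oxidases of the outer mitochondrial membrane, were well above the reference. Maob, which is known from astrocytes as well as serotonergic neurons, had 9.42, 9.28 and 9.59 in control mice and 9.44, 9.30 and 9.54 in FSS mice, and the difference was -0.0017 (95% interval -0.23 to 0.23). That of Maoa was 0.034 (95% interval -0.11 to 0.18). Of the 8 astrocytic markers, 3 were higher and 1 was lower at an unadjusted p under 0.05, beside 2.52% and 1.51% of all rows above the reference. The summed level of these markers was 13.87 to 13.88 in control mice and 13.91 to 13.95 in FSS mice, without overlap. Their part in the level of Maob was not tested.

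The dissection was also checked for cell bodies of monoamine neurons. Of 11 measured markers of these cells, 0 passed in either direction, and their summed level was 10.05 to 10.17 in control mice and 10.06 to 10.21 in FSS mice. Of the 11, 7 lay above the reference, among them Th at a mean level of 6.71. Of these 7, En1 (6.24) and Phox2a (6.26) lay only just above the reference of 6.21. The other 4 of the 11, namely Tph2, Slc18a2, Gata3 and Foxa1, lay at or under the reference. Th, Tph2 and Slc18a2 are also members. All 11 markers of granule and pyramidal cells lay above it, of which 2 were higher and 0 were lower (summed level 13.43 to 13.57 in control mice and 13.55 to 13.58 in FSS mice). For oligodendrocytes 1 of 6 markers was higher and 0 were lower, and the summed level was 13.41 to 13.46 in control mice and 13.29 to 13.56 in FSS mice. For microglia 1 of 5 was higher and 0 were lower, with 11.04 to 11.20 in control mice and 11.19 to 11.26 in FSS mice. At an unadjusted p under 0.05, 2.49% of all rows were higher and 2.66% were lower.

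Beyond these receptors, transporters and enzymes, 56 of 66 listed symbols of genes that serve monoamine signalling, among them old and new names of the same kinases, were measured, covering cofactor synthesis and clearance, G proteins and cyclic AMP signalling, and proteins that bind or desensitise the receptors. At an unadjusted p under 0.05, 4 of the 56 (7.14%) were higher in FSS mice and 0 were lower. Of all rows, 2.49% were higher and 2.66% were lower. For rows above the reference, where 52 of the 56 lay, these shares were 2.52% and 1.51%. The median difference was 0.021, beside 0.0049 over all rows and 0.011 over those above the reference. The list was set with earlier results of these data known, so its share of higher genes carries no test. S100a10 encodes an adaptor protein that binds the serotonin receptors encoded by Htr1b and Htr4 and helps to bring them to the cell surface. It had 8.97, 9.02 and 9.12 in control mice and 9.29, 9.34 and 9.23 in FSS mice, and the groups did not overlap. The difference was 0.25 (standard error 0.056, limma adjusted p = 0.943), a ratio of 1.19, with a 95% interval from 0.12 to 0.38. It ranged from 0.22 to 0.29 without each mouse in turn and passed the unadjusted threshold each time. S100a10 is not restricted to neurons. Of 8 endothelial and mural markers, 1 was higher and 0 were lower, with a summed level of 11.20 to 11.37 in control mice and 11.36 to 11.47 in FSS mice, and the part of other cell types in this result was not tested.

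The other 3 were Slc29a4, Gnai3 and Rgs19. Slc29a4, a plasma membrane transporter that takes up monoamines with low affinity, had 9.49, 9.23 and 9.29 in control mice and 9.56, 9.56 and 9.46 in FSS mice, and control mouse 1 lay above the lowest FSS mouse. Its difference was 0.19 (standard error 0.076, limma adjusted p = 0.943). Gnai3 is an inhibitory G protein alpha subunit, and Rgs19 speeds the shut-off of such subunits. Each had a difference of 0.13 (limma adjusted p = 0.943 for both), without overlap between groups. Higher levels in FSS mice without overlap were found for 6 of the 56 pathway genes (10.7%), S100a10 included. For all rows this share was 6.02%, and for rows above the reference 7.25%. Pts, Gnai2 and Adcy3 did not overlap either but did not pass the unadjusted threshold, with differences of 0.13, 0.058 and 0.042. These shares carry no test. Over 16 alternatives, Slc29a4 and Gnai3 passed the unadjusted threshold in 8 each and Rgs19 in 7. Without control mouse 2 or FSS mouse 1, none of these 3 genes passed and the number of higher genes was 1. Without FSS mouse 2 none of the 3 passed either, and the higher genes were Qdpr, Pcbd1 and S100a10. The number was 2 without control mouse 3 or FSS mouse 3. With each array centred on its median it was 1 as well, and S100a10 passed in all of these. Of all rows, 1.71% to 3.42% were higher without each mouse, and 1.82% with each array centred on its median.

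**Figure D4:**
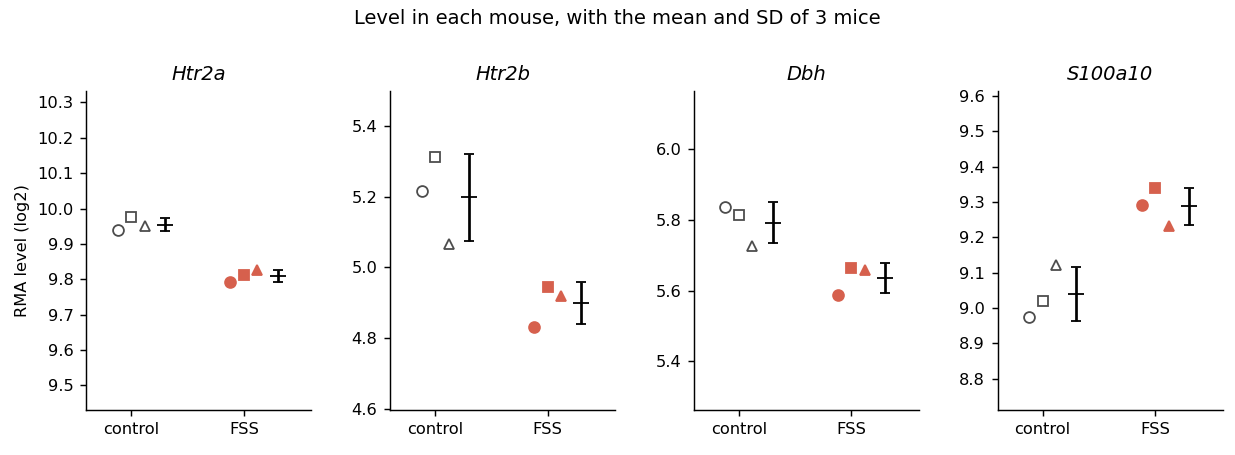
RMA level (y axis, log2) of Htr2a, Htr2b, Dbh and S100a10 in each control and FSS mouse (symbols), with the mean and SD of 3 mice as bars. All 4 panels span the same range of log2 units, and in each the control and FSS mice do not overlap.

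**Figure D5:**
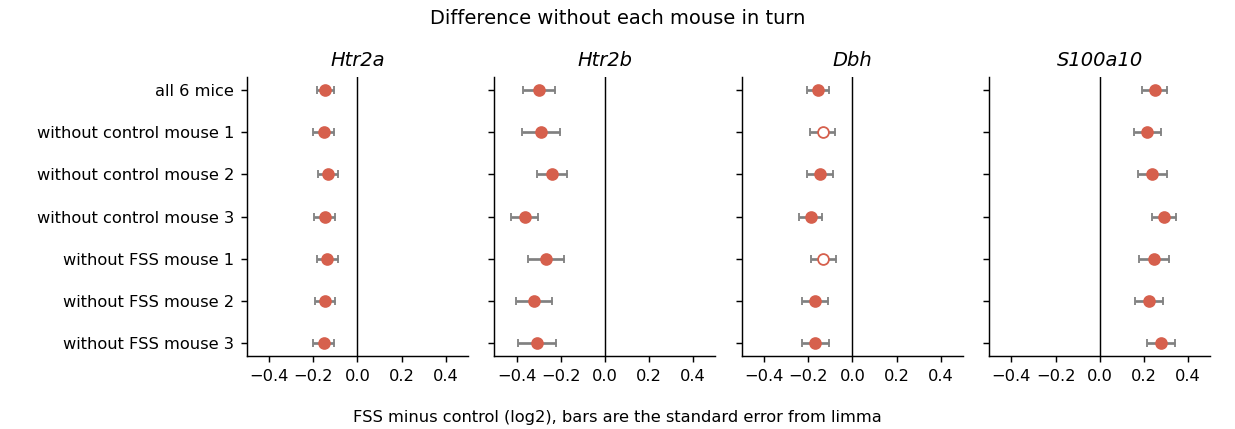
Difference between FSS and control mice (x axis, log2) of Htr2a, Htr2b, Dbh and S100a10 with all 6 mice and without each mouse in turn (y axis), with the standard error from limma as a bar. Open circles mark an unadjusted p of 0.05 or more, which is found for Dbh without control mouse 1 and without FSS mouse 1.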

How the data were processed

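RNA of the hippocampus of 3 control and 3 FSS mice was measured on 6 arrays, 1 mouse each. The deposited table holds log2 values, which the authors obtained by RMA in the Affymetrix Expression Console. Of 28944 rows, 21789 have 1 gene symbol by the annotation of the array, and for 21698 of these the gene ID was found among the RefSeq genes of the GRCm38.p6 assembly. No coordinates were used. RMA fits the probe values of all arrays to 1 distribution, so a shift common to all genes is not seen, and array differences can understate those of the RNA. The deposited levels still differed slightly between arrays, with medians from 7.32 (control mouse 3) to 7.35 (FSS mouse 2).

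The difference of FSS from control was estimated with limma 3.58.1 in R 4.3.3 (lmFit, eBayes, no covariate), with Benjamini-Hochberg adjustment over all 21789 rows. The fit was also run on simulated data, where the planted differences were larger than those of the members. That simulation held no shift of dim rows or of whole arrays and does not cover such shifts. Where a listed gene had several rows, that of the highest mean level was taken. Summed levels of marker lists are the log2 of the summed antilogs. The genes, lists and rules were chosen with earlier results of these data known. Values in every mouse are given for members that passed or did not overlap and for the brightest and most different member of each class, and other genes were added after their values were seen. Alternatives changed the normalization, the variance model, array weights, the choice of row, the filter on dim rows, a block term and the mice included. The number of arrays limits the precision. No sequence is shown, since none of the tables used here holds any.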

Additional observations from a re-analysis of the deposited data

How the results depend on the processing

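Each result was recomputed under 16 alternatives. Of these, 15 were listed at the outset, and the block of array spread was chosen after seeing the data. In all 16, 0 members were higher, 0 met the thresholds of the paper and 0 passed an adjusted p of 0.05. Htr2a and S100a10 passed the unadjusted threshold in all 16, Htr2b in the 15 that kept it and Dbh in 12 of 15. The 3 lower members became 1 without dim rows, where 23 members were left, and 3 to 5 without each mouse. The 5 were those without FSS mouse 1 (Htr1b, Htr2a, Htr2b, Htr3b and Slc18a2). Of all rows, 2.15% were lower without dim rows and 1.79% to 4.23% without each mouse (2% without FSS mouse 1). The members without overlap became 1 without dim rows and 4 to 7 without each mouse, where 2 mice face 3. The share of all rows without overlap was not computed in these settings. These counts therefore cannot be read as a result about the members. The 4 higher pathway genes became 1 with arrays centred on their median, 2 with the variance of each gene alone, 2 with array spread as the block and 1 to 4 without each mouse. The shares of all rows that were higher in these settings were 1.82%, 2.96%, 3.36% and 1.71% to 3.42%. The 0 lower pathway genes became 1 with the replicate number as a block (Slc22a2), 1 with array weights (Slc22a2 again), 1 with array spread as the block (Adcy8) and 0 to 1 without each mouse (1 without FSS mouse 2). The shares of all rows that were lower in these settings were 3.63%, 3.57%, 2.55% and 1.79% to 4.23%. The log2 difference of Maob turned to 0.030 with array weights. The cause was not tested in any of these. Leaving out a mouse changed the sign of the difference for 20 of the 33 members. Of the members chosen by the naming rule, those were Maob, Drd3, Drd5, Slc6a3 and Slc18a1, with ranges of -0.079 to 0.079 for Maob, -0.18 to 0.0031 for Drd3, -0.017 to 0.086 for Drd5, -0.043 to 0.11 for Slc6a3 and -0.0039 to 0.10 for Slc18a1. The numbers 1 to 3 of the mice are names only. Deviations from the group means correlated at -0.048, 0.14 and 0.24 for equal numbers and at -0.26 to 0.13 for unequal numbers. They add up to 0 within a group, so these values depend on one another and cannot decide whether mice were paired. With the number as a block 4 members were lower, Htr3b being added, beside 3.63% of all rows. With array weights 4 members were lower, Tph2 being added, beside 3.57% of all rows. Members under the receptor reference are near the background of the array, which limits what can be said of them.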
